A study of Mus musculus with 11 samples.

Results

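The epithelium that lines the gums is a stratified tissue whose basal cells divide and whose daughter cells move upward, change the keratins they make and are finally shed. Transcription factors run this program. Described here are 10 genes grouped as epithelial transcription factors, Pou2f1, Pou2f3, Trp63, Grhl1, Grhl3, Ovol1, Gata3, Tfap2a, Pax9 and Pitx1. They are among 19170 genes with a value in the table and 55414 listed. Their roles, not all of them within this program, are given below. The 10 were chosen by gene name with the difference between the groups already known from these same mice, so each value for diphtheria toxin (DT) against PBS below is a description, given with no p.

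RNA of gingival epithelium was sequenced from 11 male langerin-DTR mice, of which 5 had received PBS and 6 had received DT. All mice of both groups carried the langerin-DTR allele, which places the receptor for the toxin under the langerin gene, so DT kills cells that express langerin, the Langerhans cells of the epithelium and other dendritic cells that make the protein. The mice were injected at 17, 24 and 31 days of age, and tissue was taken at 8 weeks, an age by which, per the study, Langerhans cells had returned. The strain background is not given in the sources used here. No group without the allele was part of the comparison, so an action of DT outside langerin-expressing cells cannot be told apart from the loss of those cells. The sample titles number the PBS samples from S4 to S9 and the DT samples from S10 to S15. An effect that follows this numbering cannot be told apart from DT. Each mouse contributed 17509328 to 24325513 reads over the genes with values. Values are normalized counts, that is reads per gene divided by a size factor of the mouse.

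Pan-epithelial genes were abundant in every mouse, with a summed level of 2851000 to 2956000 normalized counts over the 10 listed genes in PBS mice and 2903000 to 3158000 in DT mice. Markers of other cells were low beside them. All 7 Langerhans cell markers had a value, and their sum lay between 1620 and 4191 normalized counts in PBS mice and between 1131 and 2392 in DT mice. None passed the limma test at an adjusted p under 0.1, while 3 of 7 were lower at an unadjusted p under 0.05. All 7 had a negative log2 fold change, DT minus PBS, with a median of -0.46. Cd207, the gene of langerin, had reads in every mouse, 10.0 to 43.0 normalized counts in PBS mice and 15.8 to 21.6 in DT mice. None of the 10 mesenchymal markers passed the limma test (summed level 1821 to 2210 in PBS mice and 1673 to 2191 in DT mice), with 1 higher and 3 lower at an unadjusted p under 0.05. Of the 10, 6 had a negative and 4 a positive log2 fold change, with a median of -0.45. No marker of endothelial, myeloid, salivary gland, muscle or melanocyte and Merkel cells passed in limma either, with 1 salivary gland gene lower and 0 others past an unadjusted p of 0.05. The median log2 fold changes of these lists were, in that order, -0.15, -0.26, -0.44, 0.018 and 0.027. Of the 7 myeloid genes with a value, 5 had a negative and 2 a positive log2 fold change. Their sum went the other way, with a median of 681.2 normalized counts in PBS mice (618.3 to 1734) and 1209 in DT mice (647.7 to 2016). In bulk tissue, fewer cells of a type and less RNA per cell cannot be told apart.

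The members have distinct roles. Trp63, the p53 relative that keeps basal cells in a stratified state, and Tfap2a, an AP-2 factor of the surface ectoderm, act from the bottom of the tissue. Grhl1 and Grhl3 belong to the grainyhead family, which directs barrier formation and cell junctions, and Ovol1 is a zinc finger factor that helps cells leave the cycle as they differentiate. Pou2f3 is an octamer-binding factor of suprabasal keratinocytes and also the factor on which tuft cells depend, while its relative Pou2f1, known as Oct-1, is found in most cell types. Pax9 and Pitx1 mark the oral region and the jaw during development, and Gata3 is a zinc finger factor of hair follicles, skin and lymphocytes.

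Pou2f1 stood lower in the DT mice without overlap. PBS 1 to 5 held 802, 704, 691, 668 and 648 normalized counts. DT 1 to 6 held 556, 533, 480, 499, 445 and 469, with a median of 490. Every DT mouse therefore lay below every PBS mouse, with group means of 703 ± 59.5 (SD, n = 5) and 497 ± 41.2 (SD, n = 6). PBS 1 and DT 1, the first mice by number, held the highest level of their groups. The log2 fold change, DT minus PBS on log2(normalized count + 1), was -0.50 with a standard error of 0.071. Taken back from the log2 scale, this is a level 29.2% lower. The gene (ENSMUSG00000026565) lies on the minus strand of chromosome 1 at chr1:165865154-166002678 of GRCm38, and its 3' end overlaps the opposite-strand gene Cd247, which had a mean of 6.30 normalized counts.

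Its relative Pou2f3 was lower in the mean, with groups that overlapped. The PBS mice held 173, 164, 204, 191 and 197 normalized counts, and the DT mice ranged from 150 through a median of 163 to 190. The means were 186 ± 16.8 (SD, n = 5) and 167 ± 14.02 (SD, n = 6), a log2 fold change of -0.16 with a standard error of 0.088. Tuft cell markers were near the detection limit, since 8 of 12 had a value, Gfi1b and Il25 had none, and the sum of the 8 lay between 94.7 and 135.8 normalized counts in PBS mice (median 129) and between 61.5 and 127.6 in DT mice (median 97.8). Of the 8, 7 had a negative log2 fold change, with a median of -0.29, and none passed in limma while 1 was lower at an unadjusted p under 0.05. The part of tuft cells in the Pou2f3 level was not tested.

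Trp63, the basal regulator, was among the most abundant members and spread widely in the PBS group. The PBS mice held 7805, 5975, 7262, 9059 and 5366 normalized counts, and the DT mice ranged from 7007 through a median of 7253 to 8567. All DT mice fell inside the PBS range, and the coefficient of variation was 20.7% in the PBS mice and 7.74% in the DT mice. The log2 fold change was 0.088 with a standard error of 0.11, and it was -0.0066 without PBS 5, the mouse with the lowest level. Tfap2a had means of 2960 ± 214 (SD, n = 5) and 2963 ± 122 (SD, n = 6), and its log2 fold change of 0.0034 (standard error 0.053) was the smallest among the 10 members and took the opposite sign in 6 of 11 fits that each left out a mouse.

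The factors of the upper layers differed by little. Grhl1 had the narrowest spread relative to its level, with a coefficient of variation of 3.95% in PBS mice and 3.64% in DT mice, at 6015 to 6648 normalized counts in PBS mice and 5937 to 6564 in DT mice. Grhl3 held 5495, 6578, 5806, 5268 and 6279 normalized counts in the PBS mice and between 5329 and 6720, with a median of 6401, in the DT mice. Its log2 fold change was 0.10 with a standard error of 0.070, and that of Grhl1 was -0.036 with a standard error of 0.046. Ovol1 ranged from 2764 to 3047 in PBS mice and from 2840 to 3530 in DT mice, a log2 fold change of 0.075 with a standard error of 0.057. In these 3 genes the groups overlapped.

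The oral and lineage factors also overlapped between groups. Pitx1, the most abundant member, had means of 11750 ± 1224 (SD, n = 5) and 11250 ± 469 (SD, n = 6) normalized counts. Pax9 held 1394, 1188, 1477, 1179 and 1601 in the PBS mice and spread from 878 through a median of 1156 to 1698 in the DT mice, which lay both below and above the PBS range. The coefficient of variation of Pax9 was 13.4% in PBS mice and 23.9% in DT mice. Gata3 was barely detected, with 3.89 to 11.1 normalized counts in PBS mice and 2.29 to 8.83 in DT mice, where 1 read is worth 0.845 to 1.15 normalized counts. Its log2 fold change of -0.24 lay within a standard error of 0.36, so a difference of that size was not detectable at this depth. T cell and innate lymphoid markers, which could carry Gata3, summed to 993.5 to 1261 in PBS mice and 939 to 1142 in DT mice over 13 of 18 genes, with Cd3e at 7.65 normalized counts on average. Only 6 of the 13 reached a mean of 10 normalized counts, so the sum rests mainly on those 6. Thy1, a gene of this list, is also in the mesenchymal list. Of the 13, 10 had a negative and 3 a positive log2 fold change, with a median of -0.28. The part of these markers in the Gata3 level was not tested.

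**Figure D1:**
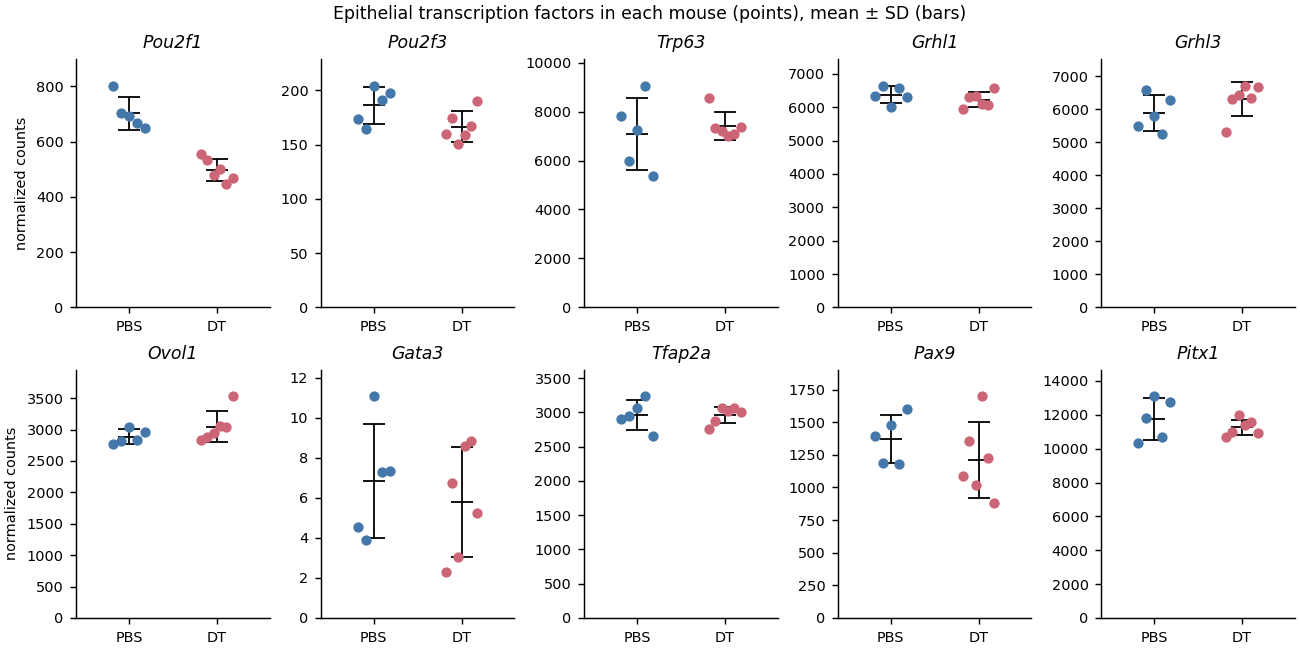
Normalized counts (vertical axes, each from 0) of the 10 transcription factors in 5 PBS and 6 DT mice, 1 point per mouse, with the mean and SD as bars. The groups are apart in Pou2f1, 648 to 802 against 445 to 556, and overlap in the other 9 genes.

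Across all genes, 107 of 19170 passed the threshold of an adjusted p under 0.1 by limma, which is 0.558%, of which 60 were higher in DT mice (0.313%) and 47 were lower (0.245%). The count moved with the mice included, from 27 without DT 5 to 259 without PBS 5. Of the members, 1 of 10, Pou2f1, was among them, in the contrast with which the members were chosen, and nothing is read from that count. At an unadjusted p under 0.05 the share of all genes was 11.5%. Among the 13477 genes whose mean reached 10 normalized counts, 0.883% were lower in every DT mouse than in every PBS mouse. Of the members, 9 reached that mean, Gata3 falling below it, and Pou2f1 was the 1 without overlap. Over the members, 6 log2 fold changes were negative and 4 positive with a median of -0.047, beside a median of -0.011 over all genes. The members next to Pou2f1 in size were Gata3 (-0.24, standard error 0.36) and Pax9 (-0.20, standard error 0.13).

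**Figure D2:**
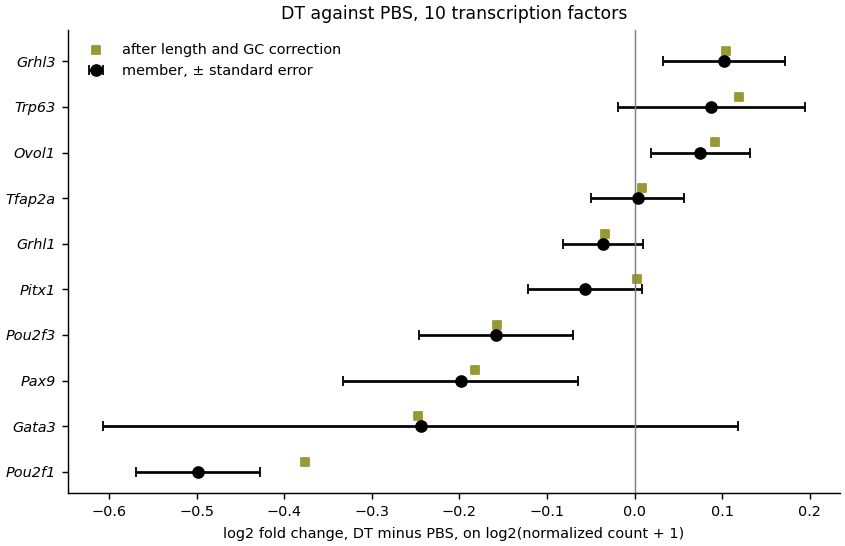
Log2 fold change, DT minus PBS (horizontal axis), of the 10 members with standard errors (black), and the same after trends with transcript length and GC content were removed in each mouse (squares). Pou2f1 moves from -0.50 to -0.38 and Pitx1 from -0.057 to 0.0026, and the others move less than Pou2f1 does.

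Pou2f1 has a very long transcript, 13050 bases for the longest of 18 annotated, against 2451 to 5366 bases for the longest of each other member. The median length of its 18 transcripts is 2203.5 bases, and which of them were expressed was not tested. The length classes and the length correction below use the longest transcript of each gene. Long transcripts as a class were lower in the DT mice. Among genes whose mean reached 100 normalized counts, the median log2 fold change was 0.052 for the 1892 genes under 2 kb, -0.067 for the 495 genes of 8 to 12 kb and -0.20 for the 115 genes of 12 kb or more, of which 8 were called lower and 0 higher. The log2 fold change of Pou2f1 was lower than that of all but 5 of those 115 genes. Without Pou2f1, the mean log2 deviation of the other 114 long transcripts was 0.18, 0.048, -0.058, 0.31 and 0.017 in PBS 1 to 5 and between -0.19 and -0.010 in the DT mice, so it was at its highest in PBS 4 and overlapped between the groups. With the trends on length and GC content removed in each mouse, a setting chosen after seeing the data, the log2 fold change of Pou2f1 was -0.38 with a standard error of 0.072, with 565 to 728 normalized counts in the PBS mice and 466 to 559 in the DT mice, still without overlap. Over all genes that setting called 138 higher and 44 lower, in place of 60 and 47.

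**Figure D3:**
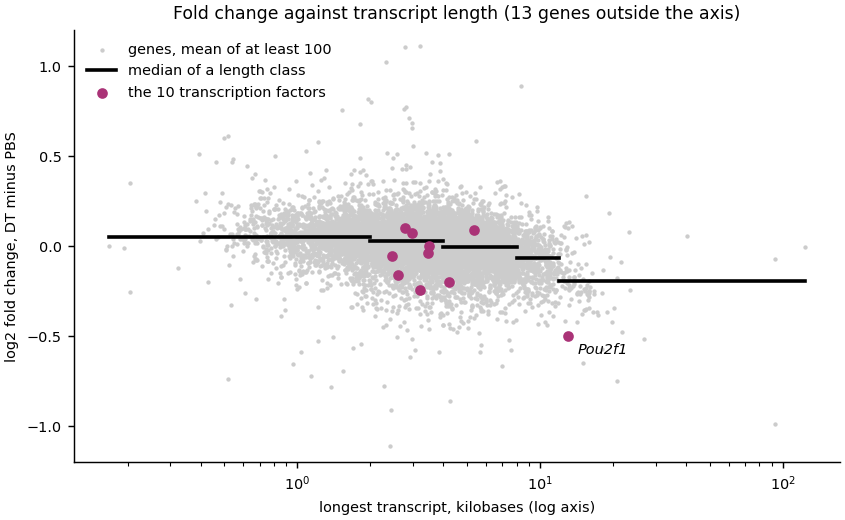
Log2 fold change, DT minus PBS (vertical axis), against the length of the longest transcript in kilobases (log axis) for 10004 genes whose mean reached 100 normalized counts (grey), the median of each of 5 length classes (lines) and the members (purple). The median falls from 0.052 in the shortest class to -0.20 in the longest, in which Pou2f1 lies at -0.50, and 13 genes fall outside the axis.

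Counts from libraries that cover whole transcripts, as the KAPA stranded mRNA kit named in the labels makes them, are compared between genes per length. The study's methods also cite the QuantSeq guide for read processing, a method that counts 3' ends and needs no division by length, and which reading holds was not tested. In normalized counts with no division by length, the means ran from 11480 for Pitx1 through 7275 for Trp63, 6293 for Grhl1, 6118 for Grhl3, 2974 for Ovol1, 2962 for Tfap2a, 1282 for Pax9, 591 for Pou2f1 and 175 for Pou2f3 to 6.26 for Gata3. Per kilobase of the longest transcript, and as the mean over all 11 mice, Pitx1 stood highest at 4682 normalized counts per kilobase, followed by Grhl3 at 2194, Grhl1 at 1814, Trp63 at 1356, Ovol1 at 1001 and Tfap2a at 849. Pax9 followed at 303, Pou2f3 at 67.2, Pou2f1 at 45.3 and Gata3 at 1.95. Within each mouse this order held for every pair of neighbours in 11 of 11 mice, except for Grhl3 and Grhl1, where it held in 10 and not in PBS 4. Between mice, the ranges of Grhl3 (1889 to 2410) and Grhl1 (1712 to 1916) overlapped, as did those of Trp63 (1000 to 1688) and Ovol1 (930 to 1188) and of Pou2f3 (57.5 to 78.2) and Pou2f1 (34.1 to 61.5). The ratio of Trp63 to Ovol1 went from 1.00 to 1.77 and that of Pou2f3 to Pou2f1 from 1.08 to 2.02 over the mice. The places of Pou2f1 and Trp63 depend on the length used. With the median transcript length, Pou2f1 stood at 268 per kilobase, above Pou2f3 at 69.5, and Trp63 at 1986, above Grhl1 at 1977. In plain counts, the mean of Pitx1 was above that of 98.9% of all genes with a value, that of Trp63 above 98.2%, that of Pou2f1 above 72.4% and that of Gata3 above 25.1%. Some antisense genes overlap members, the most abundant being Gm47071 with 271 normalized counts across Pitx1, and although the kit keeps the strand, the strand option used in counting is not stated, so their reads may not have been kept apart from those of the member.

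**Figure D4:**
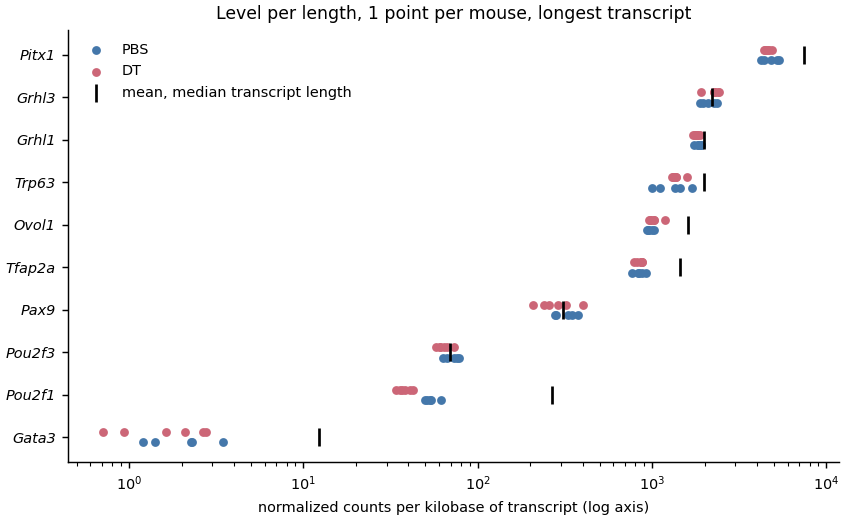
Normalized counts per kilobase of the longest transcript (log axis) for each member in each mouse, PBS in blue and DT in red, with the mean per kilobase of median transcript length as a black tick. The members span from 1.95 for Gata3 to 4682 for Pitx1, and the tick lies far from the points in Pou2f1 and Gata3.

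The spread between mice of the same group was not used in choosing the members, and it was compared with the state of the tissue layers. A score per mouse averaged, over the genes of a list, how far each log2 value lay from its group mean, for 24 basal layer genes, 39 late differentiation genes and 15 immediate early genes, and the 10 members gave 30 relations. None of the 30 passed an adjusted p of 0.05 in an exact permutation test of mice within groups. Among them, 4 had an adjusted p under 0.1. Trp63 went with the basal score at r = 0.78 (exact permutation p = 0.00539, adjusted p = 0.0832) and rho = 0.74 (exact permutation p = 0.0149, adjusted p = 0.156). Without PBS 4 and PBS 5, the mice farthest from the median score, its r was 0.51. Trp63 also went with the immediate early score, at r = 0.75 (exact permutation p = 0.0253, adjusted p = 0.152) and rho = 0.70 (exact permutation p = 0.0409, adjusted p = 0.255), with r = 0.75 without PBS 4 and DT 6. PBS 4 was the highest mouse on both scores, relative to its group. Pax9 ran against the basal score at r = -0.75 (exact permutation p = 0.00703, adjusted p = 0.0832) and rho = -0.83 (exact permutation p = 0.00366, adjusted p = 0.110). Without PBS 4 and PBS 5, the r of Pax9 with the basal score was -0.75.

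Pou2f3 and Ovol1, both factors of the suprabasal layers, had their highest r with the late differentiation score, and neither relation passed. For Pou2f3, r was 0.80 (exact permutation p = 0.00832, adjusted p = 0.0832) and rho 0.77 (exact permutation p = 0.0156, adjusted p = 0.156). For Ovol1, r was 0.82 (exact permutation p = 0.0114, adjusted p = 0.0852) and rho 0.64 (exact permutation p = 0.0425, adjusted p = 0.255). Without PBS 5 and DT 6, r was 0.66 for Pou2f3 and 0.52 for Ovol1. Individual mice decided whether these relations passed, since without DT 3 both Trp63 with the basal score (r = 0.84, exact permutation adjusted p = 0.0333) and Pou2f3 with the late score (r = 0.90, exact permutation adjusted p = 0.0146) did, and without PBS 2 Pax9 with the basal score did (r = -0.85, exact permutation adjusted p = 0.0139). No relation passed when any other mouse was left out, and none passed by rho over all mice. Pou2f1 had an r of 0.0023 with the basal score (exact permutation p = 0.995), -0.48 with the late score (exact permutation p = 0.163) and -0.16 with the immediate early score (exact permutation p = 0.644).

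**Figure D5:**
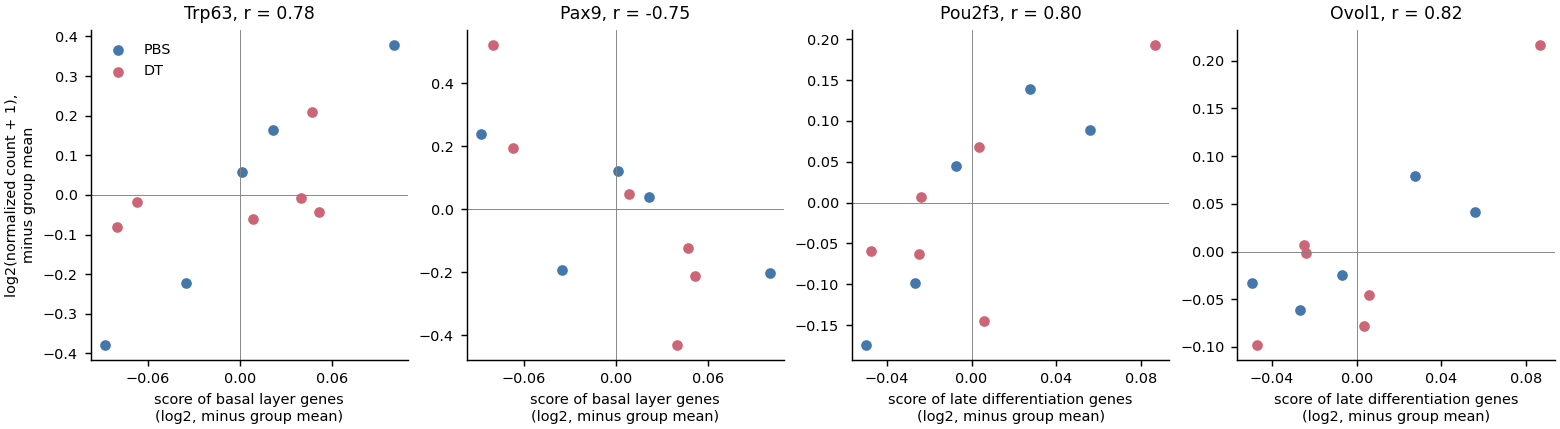
Log2 level of Trp63, Pax9, Pou2f3 and Ovol1 minus the group mean (vertical axes) against the basal or late differentiation score of the same mouse (horizontal axes, log2), 5 PBS and 6 DT mice. Trp63, Pou2f3 and Ovol1 rise with their score (r = 0.78, 0.80 and 0.82), Pax9 falls (r = -0.75), and no relation passed after adjustment over 30.

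Of the 45 pairs of members, compared within groups after seeing the data, none passed after adjustment. The strongest was Trp63 against Grhl3, at r = -0.85 (exact permutation p = 0.00313, adjusted p = 0.141) and rho = -0.92 (exact permutation p = 0.00333, adjusted p = 0.150). The 2 genes moved in opposite directions within the groups, and r stayed between -0.90 and -0.81 when each mouse was left out in turn and was -0.93 without PBS 4 and PBS 5. DT 1 had both the highest Trp63 level of its group, 8567, and the lowest Grhl3 level, 5329. Pou2f3 and Ovol1 gave r = 0.71 (exact permutation p = 0.0186, adjusted p = 0.418) and rho = 0.59 (exact permutation p = 0.0632, adjusted p = 0.569), and r was 0.48 without PBS 2 and DT 6.

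Among 10018 genes whose mean reached 100 normalized counts, those whose within-group pattern over the 11 mice was most like that of Pou2f1 were Stard4, which carries cholesterol inside cells (r = 0.94), Arhgap26 (0.90), the DNA repair scaffold Xrcc1 (0.88), Npat, the coactivator of histone genes (0.85), and Slx1b (0.83). Most opposite were the lipid phosphatase Mtmr3 (-0.94), E2f5 (-0.91), Sh3d19 (-0.88), Sec14l1 (-0.88) and the polarity gene Pard3 (-0.88). These are descriptions over 11 points that share each mouse's library, with no test. None of these 10 genes passed the test between DT and PBS in limma.

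The relatives of the members were measured as a list of 26 genes, of which 15 had a value. None passed an adjusted p of 0.1 in limma, while 1 was higher and 1 lower at an unadjusted p under 0.05, and the median log2 fold change was -0.081. Grhl2, the remaining grainyhead factor and a regulator of epithelial junctions, was at 1559 ± 148 normalized counts (SD, n = 5) in PBS mice and 1922 ± 181 (SD, n = 6) in DT mice, which is 0.30 higher on the log2 scale (limma, standard error 0.074, adjusted p = 0.126). Grhl2 was the gene nearest the threshold, and it passed with array weights (limma adjusted p = 0.0695), without PBS 4 (0.0716), without DT 1 (0.0946) and after the length and GC correction (0.0653). It did not pass in the rest of the 20 settings tried beside the main one. Tfcp2l1 followed with a log2 fold change of -0.34 (limma adjusted p = 0.397) and Trp53 with 0.12 (limma adjusted p = 0.491). Tfap2b, an abundant AP-2 relative, had a log2 fold change of -0.10 (limma adjusted p = 0.705).

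Of the POU family and the partners of octamer-binding factors, 20 of 27 had a value. None passed in limma, with 0 higher and 1 lower at an unadjusted p under 0.05 and a median log2 fold change of -0.11. The smallest p belonged to Npat, with a log2 fold change of -0.19 (limma adjusted p = 0.363), then to Pou4f3 at -0.62 (limma adjusted p = 0.437, means of 13.5 and 8.94 normalized counts) and Snapc3, a subunit of a complex needed for transcription of small nuclear RNA genes, at -0.22 (limma adjusted p = 0.443). The most abundant genes of the list were Hcfc1, a cofactor of octamer-bound complexes, at -0.10 (limma adjusted p = 0.537), Nfyc at 0.078 (limma adjusted p = 0.673) and Nfya at 0.052 (limma adjusted p = 0.833). Pou2f2, the octamer factor of B cells, was at 9.76 normalized counts in PBS mice and 8.86 in DT mice.

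Outside the 10 members, 58 of 60 further epithelial transcription factors had a value and none passed in limma, with 7 higher and 4 lower at an unadjusted p under 0.05 and a median log2 fold change of -0.022. Prdm1, a transcriptional repressor that drives terminal differentiation of keratinocytes and plasma cells, came nearest at 0.24 (standard error 0.063, limma adjusted p = 0.154), and it passed without PBS 4 (limma adjusted p = 0.0625) and after the length and GC correction (0.0587). It did not pass in the rest of the 20 settings tried beside the main one. Nfatc1 was at -0.29 (limma adjusted p = 0.246) and the homeobox gene Msx2 at 0.24 (limma adjusted p = 0.256).

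Basal layer and late differentiation genes did not pass the threshold either. All 25 basal layer genes and all 39 late differentiation genes had a value, and none passed in limma, with 3 basal and 4 late genes higher and 0 lower at an unadjusted p under 0.05. The median log2 fold change was 0.081 over the basal list and 0.053 over the late list. Krt15, a keratin of basal cells, was at 0.26 (limma adjusted p = 0.213, and 0.0908 without PBS 4), the laminin chain Lamb3 at 0.13 (limma adjusted p = 0.326) and Sfn at 0.14 (limma adjusted p = 0.398). Cdsn, which makes corneodesmosin, was at 0.21 (limma adjusted p = 0.257), the desmosomal cadherin Dsg1b at 0.18 (limma adjusted p = 0.263) and the protease inhibitor Spink5 at 0.15 (limma adjusted p = 0.412).

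Immediate early genes, which respond within minutes to growth factors, stress and tissue handling, formed the list that moved. The list was chosen with earlier results of these same mice known, so its values are a description and not separate support. Of 15 genes, 10 rose and 0 fell at an adjusted p under 0.1 in limma, with a median log2 fold change of 1.10. Fos rose by 1.70 on the log2 scale (standard error 0.26, limma adjusted p = 0.00897), Jun by 1.11 (adjusted p = 0.00897), Dusp1 by 1.02 (adjusted p = 0.00832), Btg2 by 0.76 (adjusted p = 0.00815), Ier2 by 0.75 (adjusted p = 0.00477) and Junb by 0.68 (adjusted p = 0.00815). The summed level was 27420 to 68160 normalized counts in PBS mice and 72050 to 114900 in DT mice, without overlap. Across the groups this list moved opposite to Pou2f1, and within the groups, as given above, their r was -0.16. Their part in the Pou2f1 level was not tested.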

How the data were processed

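Gingival epithelium of 5 PBS and 6 DT mice was analysed. Per the labels and the methods, reads from poly-A libraries of a KAPA stranded mRNA kit were trimmed, aligned with TopHat2 2.1.1 and counted per gene with HTSeq, and genes with a summed count under 10 were left out. The values deposited by the authors are normalized counts, divided by DESeq2 size factors. They name GRCm38 in the methods and GRCm39 in the submitters' processing notes. The strand option of the counting is not given in the sources used here. The methods cite the QuantSeq guide, written for 3' end libraries, for read processing. Every value was a whole multiple of the value of 1 read within 0.1 read, which gave the depth per mouse (17509328 to 24325513).

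DT was compared with PBS using limma 3.58.1 in R 4.3.3 on log2(normalized count + 1), with the variance trend by intensity, and p-values were adjusted over 19170 genes by Benjamini-Hochberg (threshold 0.1). Replicates are separate mice per the labels. The members and lists were chosen with earlier results of these data known. Genes named from a list are those past the threshold, up to 6 by smallest p, otherwise the 3 with the smallest p at a mean of at least 10, plus the 3 most abundant of the relatives and POU lists, and the 5 genes most like and 5 least like Pou2f1. A gene that this rule names is not reported here. Settings named only where they changed a call are exceptions. Correlations across mice were tested by exact permutation within groups (86400 orders, two-sided). Gene positions and lengths came from GENCODE release M21 on GRCm38, matched by gene ID for 99.7% of genes. On simulated data for DT against PBS with 19170 genes, limma recovered 199 of 200 changed genes and made 13 false calls. Recovery of differences as small as those of Pou2f1, Grhl2 and Prdm1 was not tested. Tests on counts were planned but the deposited unit was treated as normalized, and they were not run. Intervals of counting error were not drawn, because the spread between mice includes it.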

Additional observations from a re-analysis of the deposited data

Results flagged for a closer look

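Within the DT group, 3 members each had a mouse that stood far from the others, judged by the gap to the nearest mouse over the whole range of the group. Trp63 was at 8567 normalized counts in DT 1 (gap over range 0.764). Grhl3 was at 5329 in the same mouse (0.72), at the low end. Ovol1 was at 3530 in DT 6 (0.692), the mouse with the highest late differentiation score. The limit for 6 mice is 0.625, and 20 groups were examined, of which chance flags about 1 in 20.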

How the results depend on the processing

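Array weights called 110 genes higher and 79 lower (189 in all), and 1 relative of the members. With the replicate block, 24 were higher and 11 lower (35 in all), Tfap2a was at -0.0011 and Pou2f1 at -0.48. The replicate numbers did not pair the mice, whose same-numbered deviations correlated at 0.088, 0.172, -0.233, -0.209 and 0.324, and DT 6 has no partner in that block. The title of PBS 5 carries 6 in its bracket, which would set it beside DT 6 (r = -0.048). That replicate block, added after seeing the data, called 0 genes higher and 0 lower (0 in all, 0 immediate early genes), with 1404 at an unadjusted p under 0.05, and put Pou2f1, then not called, at -0.47 and Tfap2a at -0.0063. The length and GC correction, chosen after seeing the data, called 138 higher and 44 lower (182 in all), 1 relative and 1 further epithelial factor, and put Pitx1 at 0.0026. Leaving out each mouse in turn gave 19 to 155 genes higher, 8 to 104 lower and 27 (without DT 5) to 259 (without PBS 5) in all. Totals were 29 without PBS 1, 40 without PBS 2, 170 without PBS 4, 61 without DT 1, 52 without DT 3, 50 without DT 4 and 30 without DT 6. In the same fits 0 to 1 relatives, 0 to 1 further epithelial factors (Cebpb without PBS 3), 0 to 1 basal genes and 8 to 12 immediate early genes were called, and 0 POU or late genes. The log2 fold change of Pou2f1 was -0.53 to -0.45 over those fits. Tfap2a was at -0.0035 without PBS 1, -0.0347 without PBS 5, -0.0061 without DT 3, -0.002 without DT 4, -0.0063 without DT 5 and -0.0011 without DT 6, with 0.0363 at the highest (without PBS 4), and Trp63 went from -0.0066 without PBS 5 to 0.1823 without PBS 4. Of the relations with scores, 0 to 2 passed with a mouse left out, 0 with the replicate block, and 4 when values were not centred on the groups, among them Pou2f1 with immediate early genes (r = -0.81), which then holds the group difference. Per kilobase of median transcript length, Pou2f1 was at 268, Trp63 1986, Grhl1 1977, Ovol1 1608, Gata3 12.3, Tfap2a 1454 and Pitx1 7416. Where no construction of the setting shows it, the cause was not tested. The planned count models on recovered reads were not run. Depth limits Gata3 most.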
